A study of Homo sapiens with 3 samples.

Results

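PLXNC1 and EFNA5 are a receptor and a ligand of the cell guidance systems. Both were followed through RNA sequencing of PLC, which the labels describe as a human liver cancer cell line. They were chosen by symbol, with their values in these libraries already known, and are 2 of the 12034 genes that have at least 1 named RefSeq transcript row in the deposited table. Each is the sum of its named RefSeq rows, and all of its units lay on protein-coding (NM_) rows. Because the choice used these values, the values are a description and carry no test.

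The series has 3 libraries of PLC cells, 1 per group. In shHKDC1 the knockdown was of HKDC1, a hexokinase family member. In shRBBP5 it was of RBBP5, a core subunit of the complexes that methylate histone H3 at lysine 4. The label NTC names neither gene, is not spelled out in the labels, and was taken as the control. All cells grew in DMEM with 10% fetal bovine serum, and no time point, hairpin sequence, clone or pool is stated in the sources used here. The study asked whether HKDC1 and RBBP5 regulate gene expression.

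Plexins are single-pass receptors that bind semaphorins through an extracellular sema domain and carry a cytoplasmic domain that switches off Rap GTPases. Plexin C1, the product of PLXNC1, is the receptor of semaphorin 7A and of semaphorins made by some viruses. Ephrin A5, the product of EFNA5, is held in the membrane by a lipid anchor and binds EphA receptors and EPHB2 on neighbouring cells. Both systems are best known for steering growing axons, and both also act in the adhesion and migration of epithelial and tumour cells.

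PLXNC1 has an upstream start, taken as that of the full-length transcript NM_005761, and an internal start. NM_005761 held all of the gene's named units in every library. The shorter non-coding transcript NR_037687, whose GENCODE 29 partner begins inside the internal window, was listed at 0 in all 3 libraries. EFNA5 has 1 start in the promoter table used. Units were counted per transcript, so the use of a start was not measured. The 250 bases before each start are shown. They come from RefSeq on build GRCh38.p14, run 5′ to 3′ on the gene's strand, and have every CG dinucleotide in capitals. The PLXNC1 windows are chr12:94148327-94148576 and chr12:94262369-94262618 on the plus strand, and the EFNA5 window is chr5:107670938-107671187 on the minus strand.
PLXNC1 upstream start: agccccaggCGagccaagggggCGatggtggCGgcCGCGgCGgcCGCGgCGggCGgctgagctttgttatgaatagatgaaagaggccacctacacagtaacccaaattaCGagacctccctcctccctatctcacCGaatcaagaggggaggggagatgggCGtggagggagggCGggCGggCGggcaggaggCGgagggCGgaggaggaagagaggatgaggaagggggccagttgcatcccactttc
PLXNC1 internal start: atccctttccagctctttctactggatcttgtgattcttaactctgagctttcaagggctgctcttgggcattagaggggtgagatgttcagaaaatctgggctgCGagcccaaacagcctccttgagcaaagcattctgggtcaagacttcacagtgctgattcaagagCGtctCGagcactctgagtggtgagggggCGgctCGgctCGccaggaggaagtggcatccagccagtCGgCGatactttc
EFNA5 start: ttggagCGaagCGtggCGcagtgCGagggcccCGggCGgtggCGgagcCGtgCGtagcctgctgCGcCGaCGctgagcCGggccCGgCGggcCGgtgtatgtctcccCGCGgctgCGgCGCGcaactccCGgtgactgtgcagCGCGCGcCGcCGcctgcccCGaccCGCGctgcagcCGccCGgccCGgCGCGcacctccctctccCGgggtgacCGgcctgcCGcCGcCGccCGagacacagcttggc

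The upstream PLXNC1 window held 18 CG dinucleotides, the internal PLXNC1 window 8 and the EFNA5 window 41. The motif searched was CG, which reads the same on both strands, and the median over 35116 promoter windows of this length was 11. Of all windows, 36.8% held at least as many as the upstream PLXNC1 window, 56.3% at least as many as the internal one and 1.73% at least as many as the EFNA5 window. GC content was 65.2% before the upstream PLXNC1 start, 53.6% before the internal start and 79.6% before the EFNA5 start. These windows describe the genes only, since no chromatin or binding data are part of these files.

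The libraries totalled 115556160 units in shHKDC1, 154533913 in shRBBP5 and 161750310 in NTC, where a unit is the deposited estimated count. Low values piled up at 4 units, so 4 units were taken as 1 sequenced fragment. That is an assumption on which every interval rests. The named transcript rows held 0.397% of the units in shHKDC1, 0.47% in shRBBP5 and 0.568% in NTC, and the rest lay on anonymous assembled loci. Log2 levels across 12355 of those loci, which are not independent replicates, correlated at r = 0.91 between shHKDC1 and NTC, 0.962 between shRBBP5 and NTC, and 0.916 between the knockdowns. HKDC1 and RBBP5 had 0 named rows, so the knockdowns were not checked here. Of 17 hepatocyte markers 2 had named rows, FGB and F5, with a summed level of 1.58 CPM in shHKDC1, 5.40 CPM in shRBBP5 and 5.92 CPM in NTC. The epithelial cadherin CDH1, the 1 epithelial marker of 4 with named rows, had 1.48 CPM in shHKDC1, 2.97 CPM in shRBBP5 and 5.11 CPM in NTC, and was called lower in shHKDC1 over NTC. The 4 endothelial markers summed to 0.761 CPM in shHKDC1, 0.163 CPM in shRBBP5 and 0.138 CPM in NTC, most of it in shHKDC1 from VWF, with 73 units there and 3 in each of the other libraries. Of 6 mesenchymal markers 4 had named rows, with a summed level of 1.51 CPM in shHKDC1, 1.59 CPM in shRBBP5 and 0.607 CPM in NTC. Most of it came from PDGFRB, with 153 units in shHKDC1, 249 in shRBBP5 and 106 in NTC. RBFOX3, the 1 neuronal marker of 4 with named rows, had 0.106 CPM in shHKDC1, 0.157 CPM in shRBBP5 and 0.241 CPM in NTC. Among the 4 blood cell markers, PTPRC and CD3E were at 0 in all 3. The part of these library-wide differences in the results below was not tested.

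Plexin C1 transcript was low in the shHKDC1 library and near equal in the other 2. PLXNC1 had 86 units in shHKDC1, 1651 in shRBBP5 and 1805 in NTC. After scaling for library size by TMM, these were 0.828 CPM (counts scaled to library size, with a 95% Poisson interval of 0.531 to 1.283) in shHKDC1, 10.4 CPM (9.39 to 11.4) in shRBBP5 and 10.3 CPM (9.40 to 11.3) in NTC. The interval of shHKDC1 lay apart from those of shRBBP5 and NTC, which overlapped almost entirely. In bulk RNA of this kind, fewer cells with the transcript and less of it per cell cannot be told apart. All intervals in this text cover counting error only. Without molecular identifiers PCR copies are counted as separate fragments, so the counting error itself may be understated. There were no replicates, and the spread between cultures is unknown.

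In fragments, PLXNC1 had about 22 in shHKDC1, where the NTC level would have given 268 at that library's depth. In shRBBP5 it had 413, against 412 at the NTC level. The smaller size of the shHKDC1 library is thus already allowed for in the scaled values. A level of 3 fragments corresponds to 0.116 CPM in shHKDC1, so the remaining PLXNC1 signal there was above that floor.

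**Figure D1:**
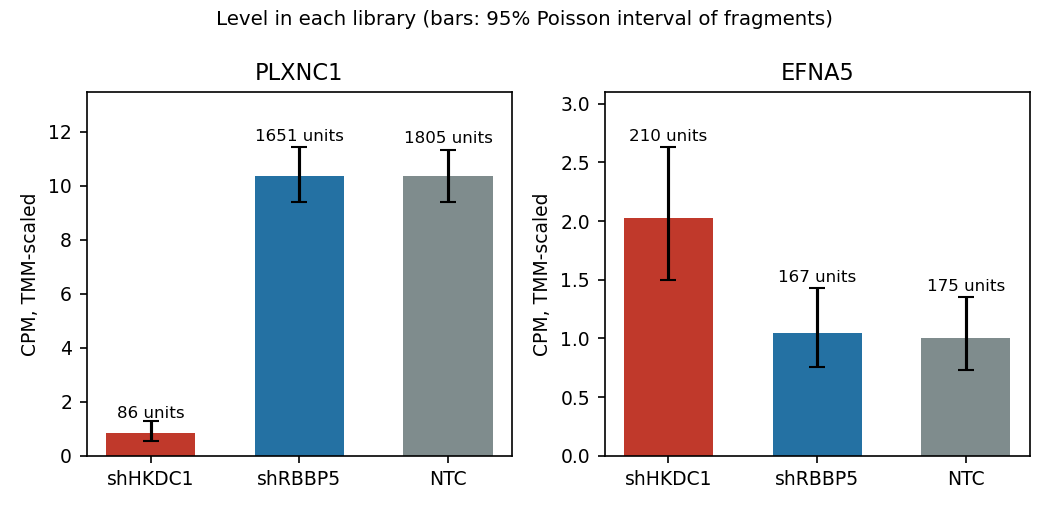
TMM-scaled level (CPM, y axis from 0) of PLXNC1 and EFNA5 in the shHKDC1, shRBBP5 and NTC libraries (x axis), 1 library per bar, with 95% Poisson intervals of the fragments and the deposited units above each bar. PLXNC1 stood at 0.828 CPM in shHKDC1 and above 10 CPM in the other libraries, and EFNA5 stood at 2.02 CPM in shHKDC1 and near 1 CPM in the others.

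The log2 ratio of PLXNC1 was −3.63 for shHKDC1 over NTC, with an exact 95% Clopper-Pearson interval of −4.30 to −2.99, or 12.4-fold lower. For shRBBP5 over NTC it was 0.00 (−0.19 to 0.20). The direct ratio of shHKDC1 over shRBBP5 was −3.64 (−4.30 to −2.99). These comparisons share libraries, so the last is not independent of the other 2. A gene was called higher or lower when its ratio was at least 2-fold and its interval excluded 0 on the log2 scale, and measured when its mean over the libraries was at least 1 CPM. PLXNC1 was called lower in shHKDC1 over NTC and over shRBBP5, and not called in shRBBP5 over NTC.

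Among the 1089 measured genes, 24.0% were called lower in shHKDC1 over NTC and 8.08% higher, so a call of this kind was common. With total counts, 380 genes were called lower and 60 higher, and with upper-quartile factors 195 and 106, where TMM gave 261 and 88. The size was less so. Of the other measured genes 3 had a lower ratio than PLXNC1 and 1085 a higher one. Those 3 had means below 2 CPM. Of the 235 genes with a mean of at least 5 CPM, none had a lower ratio in these libraries than PLXNC1, and 23.0% were called lower. Of 12355 anonymous loci, 37 had a lower ratio. The medians were −0.41 for genes and −0.02 for loci.

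In shRBBP5 over NTC, PLXNC1 lay above 732 and below 356 of the other measured genes. There 8.82% of the genes were called lower and 2.11% higher, and the median gene ratio was −0.20. In the direct comparison 3 genes had a lower ratio than PLXNC1, SOWAHA not among them (−3.38), while 18.5% of genes were called lower and 11.0% higher. With total counts 274 genes were lower and 88 higher there, where TMM gave 201 and 120.

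**Figure D2:**
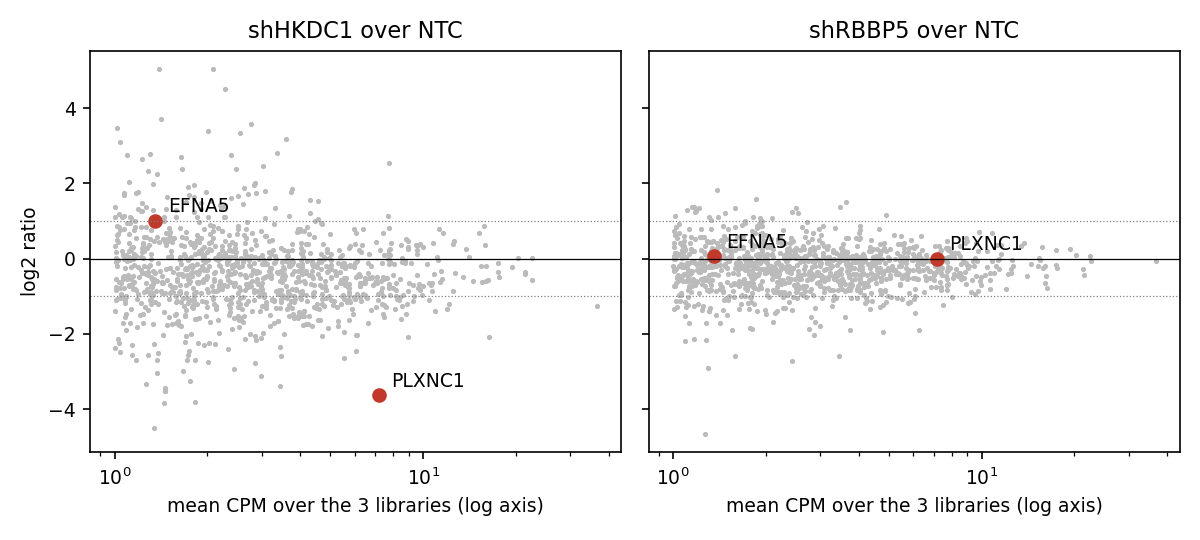
Log2 ratio (y axis) against mean CPM over the 3 libraries (x axis, log scale) for the 1089 measured genes in grey, in shHKDC1 over NTC (left) and shRBBP5 over NTC (right), with PLXNC1 and EFNA5 in red and the 2-fold limits dotted. PLXNC1 lies at −3.63 below the other genes of its level on the left and at 0.00 on the right.

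NM_005761 is a long transcript, so PLXNC1 was also set beside genes of like length. Its GENCODE 29 partner measures 7346 bases. The 198 other measured genes whose longest named transcript was within 0.8 to 1.2 times that length had a median ratio of −0.64 in shHKDC1 over NTC. Their lowest ratio was −2.75, and PLXNC1 at −3.63 lay outside their range. With 3 measured genes in all below PLXNC1, that place was nearly fixed by its choice. The part of transcript length was not tested. In shRBBP5 over NTC the same genes had a median of −0.29 and a range of −1.96 to 1.35, which held PLXNC1.

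In GENCODE 29 the end of PLXNC1 overlaps CEP83, a centriole gene on the opposite strand, over 1227 bases, and 3 antisense RNAs lie across it. The strand setting of the counting is not given in the sources used here, so reads from the shared bases cannot be told apart. CEP83 had 2.65 CPM in shHKDC1, 4.37 CPM in shRBBP5 and 4.62 CPM in NTC. Its ratio was −0.80 (−1.22 to −0.40) in shHKDC1 over NTC, short of the call and smaller than that of PLXNC1.

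Ephrin A5 transcript showed the opposite order, at a level near the filter of 1 CPM. EFNA5 had 210 units in shHKDC1, 167 in shRBBP5 and 175 in NTC. Scaled, these were 2.02 CPM (1.496 to 2.63) in shHKDC1, 1.05 CPM (0.760 to 1.42) in shRBBP5 and 1.00 CPM (0.733 to 1.35) in NTC. The shHKDC1 interval lay just above both others, which overlapped. The values cover NM_001962 alone, because the second RefSeq transcript, NM_001410773, has no row of its own.

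The deposited EFNA5 units differed little between libraries, and the ratio arose once they were set against library size. EFNA5 had about 52 fragments in shHKDC1, where the NTC level would have given 26, and 42 in shRBBP5, against 40 at the NTC level. The log2 ratio was 1.01 (0.38 to 1.60) in shHKDC1 over NTC, just past the 2-fold limit. It was 0.06 (−0.58 to 0.71) in shRBBP5 over NTC. Over shRBBP5, the shHKDC1 library gave 0.95 (0.31 to 1.55), just short of the limit.

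Calls near this level were frequent. Among the 398 measured genes with a mean below 2 CPM, 12.6% were called higher in shHKDC1 over NTC, against 8.08% of all 1089 and 0.851% of those at 5 CPM or more. Of the other measured genes 86 had a higher ratio than EFNA5, and 919 of the 12355 loci did. Genes of similar transcript length to its 5335 bases, 269 in number, had a median of −0.34 in shHKDC1 over NTC. Their range was −2.70 to 5.04, which held EFNA5.

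The call of EFNA5 depended on the scaling and that of PLXNC1 did not. With total counts and no further factor, the EFNA5 ratio in shHKDC1 over NTC was 0.75 (0.12 to 1.34), which ended the call. With upper-quartile factors the ratio over shRBBP5 became 1.07, which made a call. The PLXNC1 ratio in shHKDC1 over NTC ran from −3.90 with total counts to −3.49 with upper-quartile factors. In shRBBP5 over NTC both members kept intervals that included 0 under every scaling run, with PLXNC1 between −0.06 and 0.03 and EFNA5 between −0.0015 and 0.09.

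**Figure D3:**
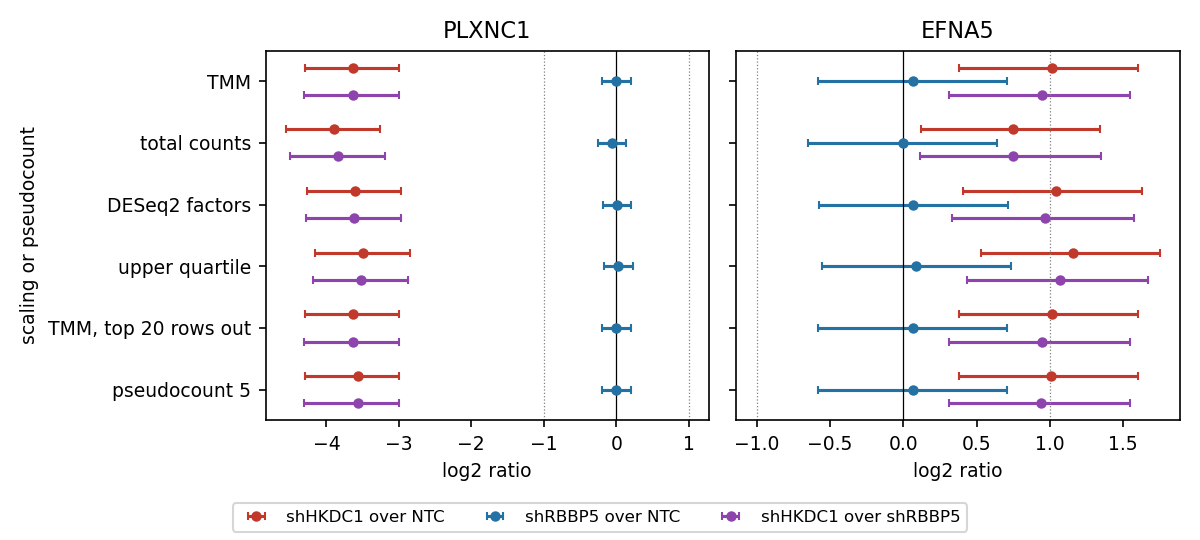
Log2 ratios (x axis) of PLXNC1 (left) and EFNA5 (right) in the 3 comparisons under 6 settings of scaling or pseudocount (y axis), with exact 95% intervals that cover counting error only and dotted lines at the 2-fold limits. PLXNC1 stays below −3.4 in both shHKDC1 comparisons, and EFNA5 in shHKDC1 over NTC lies between 0.75 and 1.16, on both sides of the limit.

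Per kilobase of transcript, the order of the genes differed between libraries. In shHKDC1 PLXNC1 had 0.113 and EFNA5 0.379 CPM per kilobase, so that EFNA5 was 3.36-fold above PLXNC1. In shRBBP5 PLXNC1 had 1.41 and EFNA5 0.196 CPM per kilobase, and in NTC PLXNC1 had 1.41 and EFNA5 0.188. PLXNC1 was 7.18-fold above EFNA5 in shRBBP5 and 7.49-fold above it in NTC. The EFNA5 level is that of 1 of its transcripts, so its gene level may be higher.

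The other genes of these systems were taken from 7 lists of 136 guidance genes, among them semaphorins, plexins, ephrins, Eph receptors, netrin and Slit receptors, and signalling partners. Of the 136, 44 had named rows, members included, and 16 of these were measured. In shHKDC1 over NTC, 4 of the 16 were called higher and 5 lower, where 8.08% of all measured genes were called higher and 24.0% lower. The members were chosen for their values, and without them 3 of 14 were higher and 4 lower. The median of the 16 was −0.20 against −0.41 over all measured genes. In shRBBP5 over NTC, 0 were higher and 2 lower, where 2.11% and 8.82% of all measured genes were, with a median of 0.01 against −0.20. In shHKDC1 over shRBBP5, 4 were higher and 3 lower, where 11.0% and 18.5% of all measured genes were, with a median of 0.02 against −0.16. A gene low in 1 library alone passes the filter through the other libraries, and a gene high in 1 library alone passes it through that library.

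Among the semaphorins, the ligands of plexins, 5 had a measured level and 3 of these were called lower in shHKDC1 over NTC, where 24.0% of all measured genes were. SEMA7A, the ligand of plexin C1, had no named row and was not analysed here. SEMA3G, a secreted semaphorin, had 0.510 CPM in shHKDC1, 2.60 CPM in shRBBP5 and 1.74 CPM in NTC, and its ratio in shHKDC1 over NTC was −1.75 (−2.77 to −0.94). SEMA4A, a membrane semaphorin of immune cells, had 0.867 CPM in shHKDC1, 1.73 CPM in shRBBP5 and 2.50 CPM in NTC, with a ratio of −1.52 (−2.29 to −0.89). For SEMA3B, a secreted semaphorin studied as a tumour suppressor, the part on named rows had a ratio of −1.01 (−1.45 to −0.60), and the call ended with DESeq2 size factors (−0.98), upper-quartile factors (−0.86) or a pseudocount of 5 units (−0.99). SEMA3A and SEMA4D, the ligand of plexin B1, were not called, at −0.53 and 0.29. No semaphorin of the 5 was called in shRBBP5 over NTC, where 8.82% of all measured genes were called lower and 2.11% higher.

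Of the plexins and neuropilins, PLXNC1 was the single measured gene. PLXNB3 had 6 units in shHKDC1, 10 in shRBBP5 and 27 in NTC. PLXNA4 was listed at 0 in all 3 libraries. The remaining 8 of the 11 had no named rows.

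Of the ephrins, EFNA5 was the single measured gene. EFNB2 had 21 units in shHKDC1, 15 in shRBBP5 and 48 in NTC, and EFNB3 had 39 in shHKDC1, 89 in shRBBP5 and 79 in NTC. Both are ligands of EphB receptors.

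The 3 measured Eph receptors, the receptor tyrosine kinases that ephrins bind, were called in none of the comparisons. Of all measured genes, 24.0% were called lower and 8.08% higher in shHKDC1 over NTC. The shares were 8.82% and 2.11% in shRBBP5 over NTC, and 18.5% and 11.0% in shHKDC1 over shRBBP5. EPHB2, which also binds ephrin A5, had 4.84 CPM in shHKDC1, 4.76 CPM in shRBBP5 and 4.41 CPM in NTC. Its ratio was 0.14 (−0.19 to 0.47) in shHKDC1 over NTC. EPHA6 stood at 0.07 (−0.56 to 0.64) and EPHB3 at 0.63 (0.12 to 1.16) in the same comparison. The Eph receptors below the filter had few units and no common direction. EPHA1 had 5 units in shHKDC1, 27 in shRBBP5 and 58 in NTC. EPHA3 had 0 in shHKDC1, 0 in shRBBP5 and 9 in NTC. EPHA4, another receptor of ephrin A5, had 15 in shHKDC1, 0 in shRBBP5 and 0 in NTC, and EPHA8 had 58 in shHKDC1, 0 in shRBBP5 and 12 in NTC. EPHB1 was listed at 0 in all 3 libraries. If no filter were applied, EPHA4 and EPHA8 would be called higher and EPHA1 lower in shHKDC1 over NTC.

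Of the 12 netrin, Slit and RGM genes with named rows, 2 were measured, both of them receptors. Both were called higher in shHKDC1 over NTC, where 8.08% of all measured genes were. UNC5B, a netrin receptor, had 6.21 CPM in shHKDC1, 0.577 CPM in shRBBP5 and 1.84 CPM in NTC. Its ratios were 1.75 (1.36 to 2.16) in shHKDC1 over NTC and −1.67 (−2.40 to −0.98) in shRBBP5 over NTC, a call in each direction. ROBO3, a receptor of the Slit receptor family, had 8.37 CPM in shHKDC1, 2.44 CPM in shRBBP5 and 2.91 CPM in NTC. Its ratio was 1.52 (1.1997 to 1.85) in shHKDC1 over NTC, and in shRBBP5 over NTC it was not called (−0.25). Below the filter, the netrin receptor UNC5A had 8 units in shHKDC1, 21 in shRBBP5 and 67 in NTC. SLIT3 had 16 in shHKDC1, 4 in shRBBP5 and 2 in NTC. Without the filter, UNC5A would be called lower and SLIT3 higher in shHKDC1 over NTC.

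Among regulators of Ras and Rap GTPases, RASA2, a Ras GTPase-activating protein, had 2.36 CPM in shHKDC1, 5.10 CPM in shRBBP5 and 5.11 CPM in NTC. Its ratio of −1.11 (−1.55 to −0.71) in shHKDC1 over NTC fell short of the call with upper-quartile factors (−0.97). RAPGEF6, which activates the Rap GTPases that plexins switch off, had its low value in the other knockdown, with 6.82 CPM in shHKDC1, 2.53 CPM in shRBBP5 and 9.43 CPM in NTC.

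Among signalling partners, FYN, a Src-family kinase that acts downstream of ephrin A ligands and of semaphorin receptors, had 1.98 CPM in shHKDC1, 0.621 CPM in shRBBP5 and 0.613 CPM in NTC. Its ratio in shHKDC1 over NTC was 1.69 (1.00 to 2.42). FYN passed the filter only through its level in shHKDC1, so its call was favoured by that selection. CRMP1, a cytoskeletal mediator of semaphorin signals, stood at −0.87 (−1.33 to −0.43) and was called lower with total counts alone (−1.14). Both were near 0 in shRBBP5 over NTC, at 0.02 for FYN and −0.02 for CRMP1. CHN2, below the filter, had 30 units in shHKDC1, 0 in shRBBP5 and 0 in NTC. Without that filter CHN2 would be called higher in shHKDC1 over NTC and over shRBBP5.

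**Figure D4:**
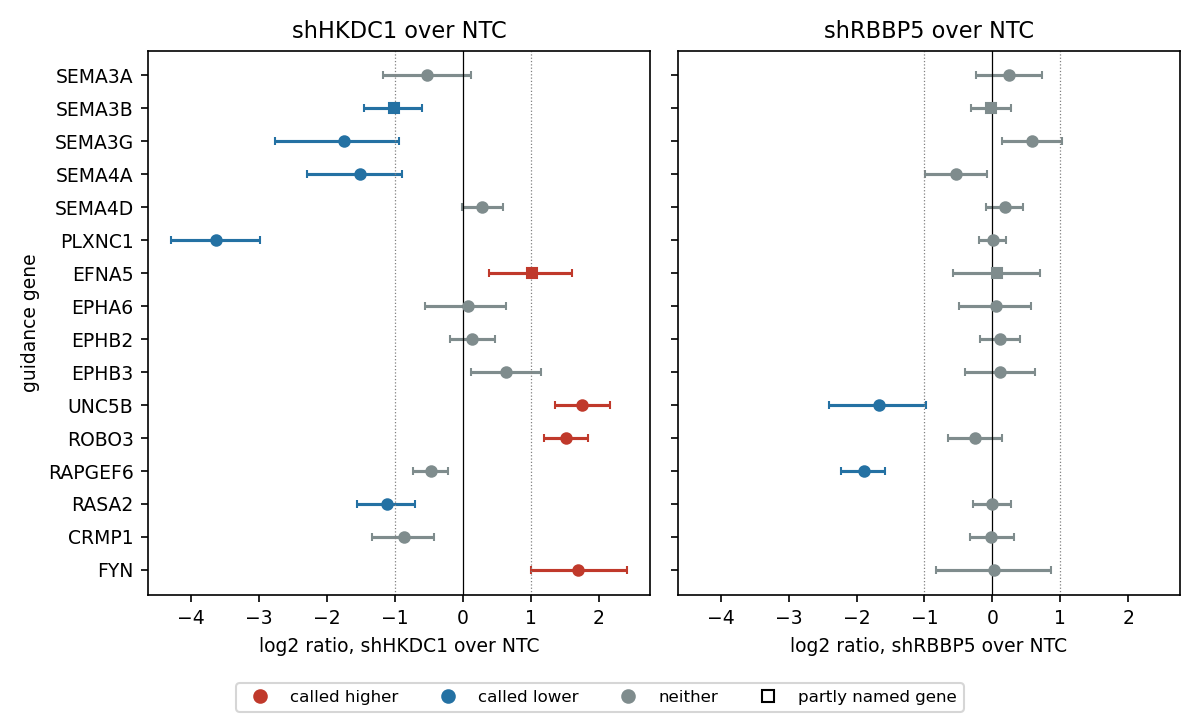
Log2 ratios (x axis) of the 16 measured guidance genes (y axis) in shHKDC1 over NTC (left) and shRBBP5 over NTC (right), with exact 95% intervals for counting error, dotted 2-fold limits, and squares for genes of which only part has named rows. On the left 4 genes are called higher and 5 lower, PLXNC1 the farthest from 0 at −3.63, and on the right UNC5B and RAPGEF6 are called lower.

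The genes most like each member were found among 913 measured protein-coding genes with all their RefSeq transcripts on named rows, by the Euclidean distance between log2 levels over the 3 libraries after centring each gene. Nearest to PLXNC1 was SOWAHA at a distance of 0.30, with 0.212 CPM in shHKDC1, 2.26 CPM in shRBBP5 and 3.02 CPM in NTC. IL22RA1, a subunit of the interleukin 22 receptor, was at 0.32, and SPP1, which encodes osteopontin, at 0.54. All 3 had under 10 fragments in shHKDC1, and no gene of these 3 reached the PLXNC1 level in NTC.

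EFNA5 lay closer to its neighbours. Nearest was PREX1, a Rac exchange factor, at 0.02, with 6.85 CPM in shHKDC1, 3.50 CPM in shRBBP5 and 3.32 CPM in NTC. KLHL29 was at 0.04 and ZNF222 at 0.07. With 3 libraries, such likeness rests on 3 values per gene.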

How the data were processed

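The authors deposited estimated counts per row, made before deposit without scaling for library size or length. The submitters' processing notes list StringTie 1.3.4, HISAT2 2.2.1, DESeq2 1.28.1 and hg19, with no role for any. Columns were matched to samples by their abbreviated names. RefSeq rows were named by accession without version through the GRCh38.p14 RefSeq table (27357 of 27403) and summed per gene. 74 of the 1089 measured genes, EFNA5 included, have only part of their transcripts on named rows. No coordinates of the files were used.

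TMM factors (edgeR 4.0.16, R 4.3.3, all 43704 rows) were 0.899 for shHKDC1, 1.031 for shRBBP5 and 1.079 for NTC. Depth was 28889040 fragments in shHKDC1, 38633478 in shRBBP5 and 40437578 in NTC, at 4 units each. Ratios used a pseudocount of 0.5 units, and intervals were 95% Clopper-Pearson from a conditional binomial on fragments. With 1 library per group no test was made. The calling script was run on simulated counting noise, which holds no variation between cultures. The named genes were the members, every measured gene of the 7 lists, and the 3 genes nearest each member. Other names were chosen after their values were seen. They were CEP83, PLXNB3, PLXNA4, EFNB2, EFNB3, UNC5A, SLIT3, NTN4, CHN2, CDH1, VWF, PDGFRB, RBFOX3 and the Eph receptors below the filter. Members and lists were chosen with earlier results of these data known. Alternatives were other scalings (total counts, upper quartiles, DESeq2 1.42.0 size factors, TMM without the 20 most abundant rows), a pseudocount of 5, units taken as reads, and other CPM filters. Python 3.11.15 with SciPy 1.17.1 served the other steps.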

Additional observations from a re-analysis of the deposited data

How the results depend on the processing

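The ratios of both members stayed within their counting intervals under each alternative, although the EFNA5 call in shHKDC1 over NTC ended with total counts (0.75) and one over shRBBP5 appeared with upper quartiles (1.07). With no replicates, leaving out a library was not possible, and no paired analysis was possible because each group has 1 library.

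Which genes are tested is set by the filter, so counts of calls moved with it. With no filter on CPM, named genes called were 581 higher and 507 lower in shHKDC1 over NTC (88 and 261 at 1 CPM), 143 and 306 in shRBBP5 over NTC (23 and 96), and 684 and 424 in shHKDC1 over shRBBP5 (120 and 201). With a mean of at least 5 CPM they were 2 and 54, 0 and 11, and 3 and 35 in the same order. The unfiltered counts of named genes are out of 12034. Without a filter, the 44 guidance genes with named rows gave 8 higher and 7 lower in shHKDC1 over NTC. They gave 1 higher and 3 lower in shRBBP5 over NTC, and 8 higher and 3 lower in shHKDC1 over shRBBP5. At 5 CPM they gave 0 higher and 1 lower, then 1 lower, then 1 higher and 1 lower. Upper-quartile factors left 3 guidance genes lower in shHKDC1 over NTC, and total counts made 6 lower in shHKDC1 over shRBBP5. Total counts also moved the median of the measured genes in shHKDC1 over NTC from −0.41 to −0.69. Treating each unit as a read narrowed the PLXNC1 interval there to −3.97 to −3.33.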
